A study of Mus musculus with 7 samples.

Results

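The genes described here encode the replicative MCM helicase and the proteins that license origins of replication: the subunits Mcm2 to Mcm7, the loading factors Cdc6 and Cdt1, the licensing inhibitor geminin (Gmnn) and the replication factor Mcm10. Every probe annotated with 1 of these 10 gene names, out of 31829 gene names and identifiers on the array, was taken, which gave 12 of the 39429 probes of the array, with 2 probes each for Mcm3 and Cdc6. Signal was measured in C2C12 cells, a line of mouse myoblasts that can be differentiated into multinucleated myotubes. Recipient cells received, for 24 h, exosomes released by other C2C12 myotubes that had been treated with palmitate at 0.5 mM (EXO-Palm, 3 arrays) or with BSA, the carrier of the fatty acid (EXO-BSA, 4 arrays). These exosomes were collected 9 h after the palmitate had been removed. Exosomes were thus added in both groups, and the comparison does not include cells without exosomes. The study describes the recipients as differentiated myotubes in serum-free medium, whereas the labels give the cell type as myoblast. Some labels number the cell line otherwise than C2C12, and these were read as C2C12.

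An origin is licensed when the origin recognition complex, Cdc6 and Cdt1 load the ring of Mcm2 to Mcm7 onto DNA before S phase begins. Loaded rings stay inactive until kinases and firing factors attach Cdc45 and the GINS complex, which turns each ring into a moving helicase. Geminin binds Cdt1 during S phase and afterwards, so that no origin is loaded again within the same cycle. Most of these genes are transcribed periodically in cycling cells, under E2F factors, and their mRNAs fall as myoblasts leave the cycle and fuse.

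All 10 tested probes had a higher mean with EXO-Palm than with EXO-BSA, by 0.46 to 1.64 on the log2 scale, with a median of 0.69 (1.37-fold to 3.11-fold for single probes). Mcm10 (1.64) and Mcm5 (1.44) differed most and Mcm4 (0.46) least. After Benjamini-Hochberg adjustment across the whole array, 0 of the 10 passed an adjusted p of 0.05 in limma. Mcm5 came nearest, with an adjusted p of 0.0614. Of the 21589 probes tested, 0.463% passed that threshold as higher and 0.0695% as lower. At an unadjusted limma p under 0.05, 7 of the 10 probes were higher and 0 were lower, where 4.85% of all tested probes were higher and 5.19% lower. The EXO-Palm arrays lay wholly above the EXO-BSA arrays for 7 of the 10 probes and wholly below them for 0, while 5.40% of all tested probes lay wholly above and 5.87% wholly below. A higher mean of any size was found for 47.3% of all tested probes, whose median difference was -0.02. All 10 tested probes passed the filter on dim signal in both groups, and both probes of Cdc6 were too dim to be tested. The 10 probes cover 9 genes, so Mcm3 enters these counts with 2 overlapping probes.

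Because licensing genes are known E2F targets, the start-site regions were searched for E2F-type motifs. The RefSeq table (GRCm38.p6) holds windows of 250 bases before to 50 bases after the start for 8 of the 10 genes, without Mcm4 and Gmnn, and it holds 2 windows for Mcm7. The motifs were TTTCCCGC, TTTGGCGC, TTTCGCGC and TTTGCCGC on both strands, and overlapping matches were kept. At least 1 match was present for 6 of the 8 genes and in 6 of their 9 windows, against 2.26% of all 32851 windows and 2.85% of the 21263 windows of protein-coding genes. The stretches below show these matches in capitals, written 5′ to 3′ on the strand of the gene, with the strand of the gene after the coordinates.
Mcm3, chr1:20820266-20820294 (-): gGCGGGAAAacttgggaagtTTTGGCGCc
Mcm5, chr8:75109344-75109379 (+): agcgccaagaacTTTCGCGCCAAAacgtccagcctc
Mcm6, chr1:128359733-128359827 (-): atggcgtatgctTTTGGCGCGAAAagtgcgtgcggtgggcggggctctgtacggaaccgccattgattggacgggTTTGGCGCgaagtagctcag
Mcm7, chr5:138172029-138172060 (-): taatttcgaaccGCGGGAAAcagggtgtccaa
Mcm7, chr5:138171849-138171878 (-): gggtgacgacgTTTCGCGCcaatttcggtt
Cdc6, chr11:98908001-98908032 (+): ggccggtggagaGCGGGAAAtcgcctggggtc
Cdt1, chr8:122568036-122568064 (+): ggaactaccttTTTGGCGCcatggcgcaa

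In Mcm5 and Mcm6 the capitals before the start hold a pair of overlapping matches on opposite strands, which begin 153 and 149 bases before the start in Mcm5 and 110 and 106 bases before it in Mcm6. Mcm6 has a further match that begins 47 bases before the start. The matches of Mcm3 and Cdt1 lie after the start, while those of the upstream Mcm7 start lie on either side of it. No match was found in the windows of Mcm2 and Mcm10. The elements TTTGAA and TTCGAA, forms of the CHR that many mitotic promoters carry, were found in the windows of Mcm2 and of the upstream Mcm7 start, 2 of 9 windows, against 19.2% of all windows. Such matches describe the letters only. Mcm5 (with matches) and Mcm10 (without) had the 2 highest differences.

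**Figure D1:**
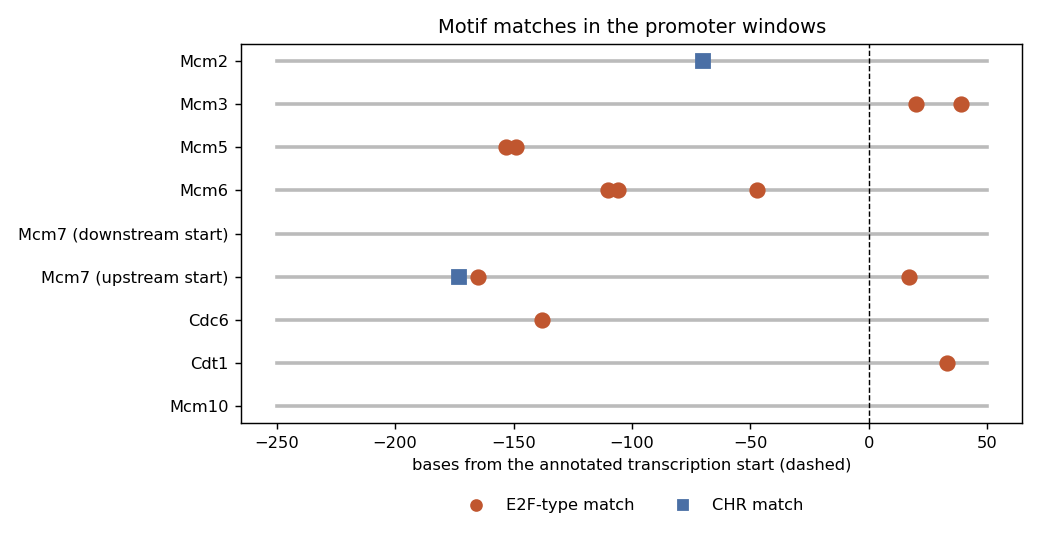
Positions of the motif matches in the 9 start-site windows of 8 genes, in bases from the annotated transcription start (dashed line), with circles for E2F-type matches and squares for CHR matches. Circles are present in 6 of the 9 windows and squares in 2 of them.

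The signal is the log2 of the processed intensity minus the 75th percentile of the array, so 0 stands for that percentile and 1 unit for a doubling. Apart from the sums of marker lists and the choice or naming of brightest probes, signal levels of different probes are not compared. A probe's brightness also depends on its sequence. Probe positions refer to mm9, as the array's annotation gives them.

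Mcm5, a subunit on 1 side of the gate through which the ring opens, had the highest difference of the helicase genes (probe A_51_P190111, chr8:77651350-77651410). Its signal was -1.45, -1.42, -1.19 and -1.32 on EXO-BSA replicates 1 to 4 and -0.27, -0.11 and 0.66 on EXO-Palm replicates 1 to 3. The EXO-BSA arrays were close together and every EXO-Palm array was above all of them, with EXO-Palm replicate 3 highest. The means were -1.34 ± 0.12 (SD, n = 4) and 0.10 ± 0.50 (SD, n = 3), a log2 difference of 1.44 with a standard error of 0.260 (2.71-fold, limma adjusted p = 0.0614). An exact 2-sided permutation test gave p = 0.0286, the smallest that 35 ways of dividing 7 arrays can give. The limma call depended on the settings, and Mcm5 passed in 4 of 19 alternatives. It passed with slide as a random block (adjusted p = 0.0333) and not with slide as a fixed block (difference 1.52, adjusted p = 0.11). With no slide term it passed with array weights (0.0472), a trended and robust variance (0.0261) and the filter on all 7 arrays (0.0244).

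The partner of Mcm5 at the gate, Mcm2, showed a smaller difference and overlapping groups (A_51_P158210, chr6:88833619-88833678). EXO-BSA arrays gave -0.79, -0.98, -1.57 and -1.67, and EXO-Palm arrays gave -0.86, -0.63 and -0.65. EXO-BSA replicate 1 was higher than EXO-Palm replicate 1, and the spread was larger among the controls. The log2 difference was 0.54 with a standard error of 0.266 (1.45-fold, limma adjusted p = 0.552, exact permutation p = 0.143).

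Mcm6 was separated between the groups (A_51_P360492, chr1:130228178-130228237). Its signal was 2.35, 2.24, 1.99 and 1.59 with EXO-BSA and 2.77, 2.97 and 3.26 with EXO-Palm. The lowest EXO-Palm array was thus above the highest EXO-BSA array. With means of 2.04 ± 0.34 (SD, n = 4) and 3.00 ± 0.25 (SD, n = 3), the difference was 0.96 with a standard error of 0.250 (1.94-fold, limma adjusted p = 0.209, exact permutation p = 0.0286).

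Mcm4 and Mcm7 form with Mcm6 the core that unwinds DNA in vitro. For Mcm4 (A_51_P356762, chr16:15624372-15624431) the signal was 1.16, 0.94 and 1.31 on EXO-BSA replicates 1, 2 and 4 and 1.48, 1.28 and 2.02 with EXO-Palm. The spot on EXO-BSA replicate 3 was marked by the scanner software and left out of the fit. EXO-Palm replicate 2 lay below EXO-BSA replicate 4, so the groups overlapped. The difference was 0.46 with a standard error of 0.267 (1.37-fold, limma adjusted p = 0.62), and the exact permutation p over 20 splits was 0.2. Without EXO-Palm replicate 3 it was 0.24.

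For Mcm7 (A_51_P165704, chr5:138605925-138605984) EXO-BSA arrays gave 1.30, 1.34, 1.47 and 1.53 and EXO-Palm arrays 1.67, 1.70 and 2.58. The groups did not overlap, but EXO-Palm replicates 1 and 2 were just above the highest control and replicate 3 stood well above them. The difference was 0.57 with a standard error of 0.263 (1.49-fold, limma adjusted p = 0.517, exact permutation p = 0.0286). Without EXO-Palm replicate 3 it was 0.27.

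Mcm3, the subunit through which Mcm2 to Mcm7 contact the complex on the origin, has 2 probes that overlap on mm9. Probe A_51_P324934 lies at chr1:20793119-20793178 and probe A_55_P1953087 at chr1:20793136-20793195, and 43 of their 60 bases are shared. They are therefore not separate measurements of the gene. Their sequences differ within the overlap at 1 base, A31G, counted from the 5′ end of A_55_P1953087, and this base is shown in capitals in the stretch chr1:20793149-20793178.
A_55_P1953087: aagctttctttgcAattagactagtatgta
A_51_P324934: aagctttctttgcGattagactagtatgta

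Probe A_51_P324934 read 0.31, 0.08, -0.09 and -0.43 with EXO-BSA and 0.87, 0.71 and 0.42 with EXO-Palm. Probe A_55_P1953087 read -0.43, -0.68, -0.57 and -0.48 with EXO-BSA and 0.05, -0.21 and 0.35 with EXO-Palm. Neither probe had overlapping groups, although the order of the EXO-Palm arrays was not the same: replicate 3 was the lowest of them on the first probe and the highest on the second. The log2 differences were 0.70 with a standard error of 0.240 (limma adjusted p = 0.375, exact permutation p = 0.0571) and 0.60 with a standard error of 0.209 (limma adjusted p = 0.377, exact permutation p = 0.0286). With normexp background correction the second was 0.36.

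**Figure D2:**
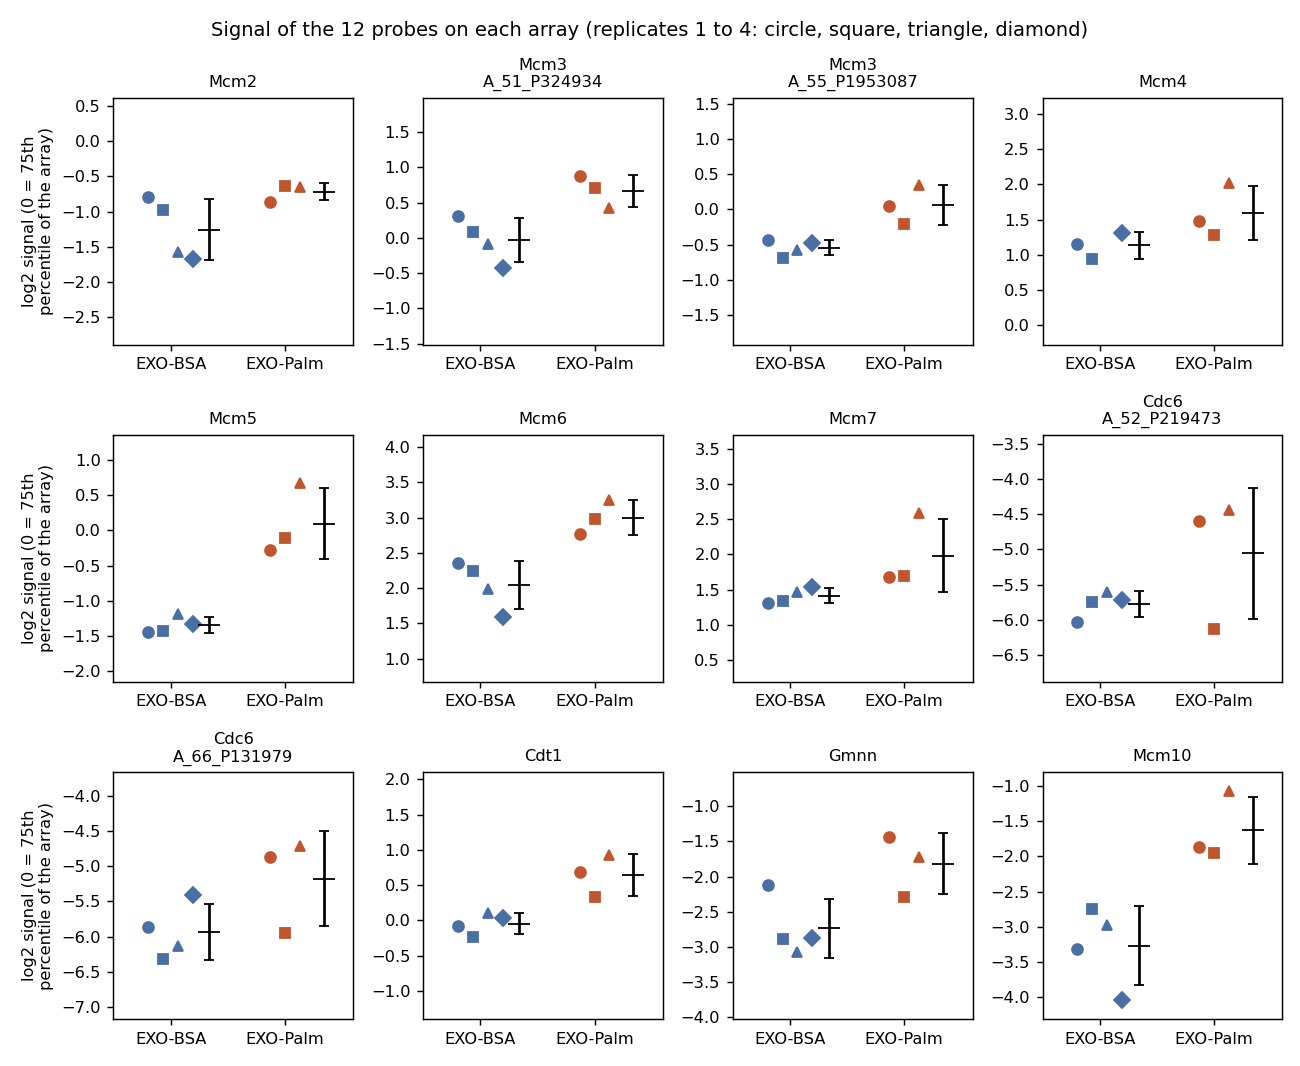
Signal of the 12 probes on each array, as log2 with 0 at the 75th percentile of the array; circles, squares, triangles and diamonds are replicates 1 to 4, and bars are mean ± SD. Every vertical axis spans the same number of log2 units. For 7 of the 10 tested probes all EXO-Palm points lie above all EXO-BSA points, most widely for Mcm5 and Mcm10, while both Cdc6 probes overlap.

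Of the loading factors, Cdt1, which brings the helicase ring to the origin, was measured well above background on all 7 arrays (A_51_P133612, chr8:125096893-125096952). Its signal was -0.08, -0.24, 0.11 and 0.03 with EXO-BSA and 0.68, 0.33 and 0.92 with EXO-Palm. Controls varied little and every EXO-Palm array was above them. The difference was 0.69 with a standard error of 0.218 (1.61-fold, limma adjusted p = 0.323, exact permutation p = 0.0286).

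Cdc6, the ATPase that joins the origin recognition complex before loading, was well above background on 0 of 4 EXO-BSA arrays and on 1 of 3 EXO-Palm arrays, replicate 1, with either probe. Probe A_52_P219473 (chr11:98785169-98785228) read -6.03, -5.74, -5.61 and -5.72 with EXO-BSA and -4.60, -6.13 and -4.45 with EXO-Palm. Probe A_66_P131979 (chr11:98782986-98783045) read -5.86, -6.32, -6.13 and -5.41 and then -4.86, -5.94 and -4.72. On both probes EXO-Palm replicates 1 and 3 were above all controls and replicate 2 was among them or below. No fold is given for this gene, because most of these readings were not well above background. The exact permutation p was 0.229 and 0.171.

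Geminin, the inhibitor of Cdt1, was also higher on average (A_55_P2128646, chr13:24843715-24843774). EXO-BSA arrays gave -2.12, -2.89, -3.07 and -2.87, and EXO-Palm arrays gave -1.44, -2.29 and -1.72. EXO-Palm replicate 2 lay below EXO-BSA replicate 1, so the groups overlapped at that point. The difference was 0.92 with a standard error of 0.303 (1.89-fold, limma adjusted p = 0.35, exact permutation p = 0.0857).

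Mcm10, which is not a subunit of the ring and acts when the assembled helicase starts to unwind, showed the highest difference of the tested members (A_55_P2058962, chr2:4911785-4911844). Its signal was -3.31, -2.74, -2.98 and -4.03 with EXO-BSA and -1.86, -1.95 and -1.08 with EXO-Palm. All EXO-Palm arrays were above all controls. EXO-BSA replicate 4, the lowest, was not well above background, and the other 6 arrays were. With means of -3.27 ± 0.56 (SD, n = 4) and -1.63 ± 0.48 (SD, n = 3), the difference was 1.64 with a standard error of 0.354 (3.11-fold, limma adjusted p = 0.124, exact permutation p = 0.0286). Without EXO-BSA replicate 4 it was 1.38, below the 1.45 of Mcm5 in that fit. Over its alternatives the difference of Mcm10 was 1.14 to 1.93.

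**Figure D3:**
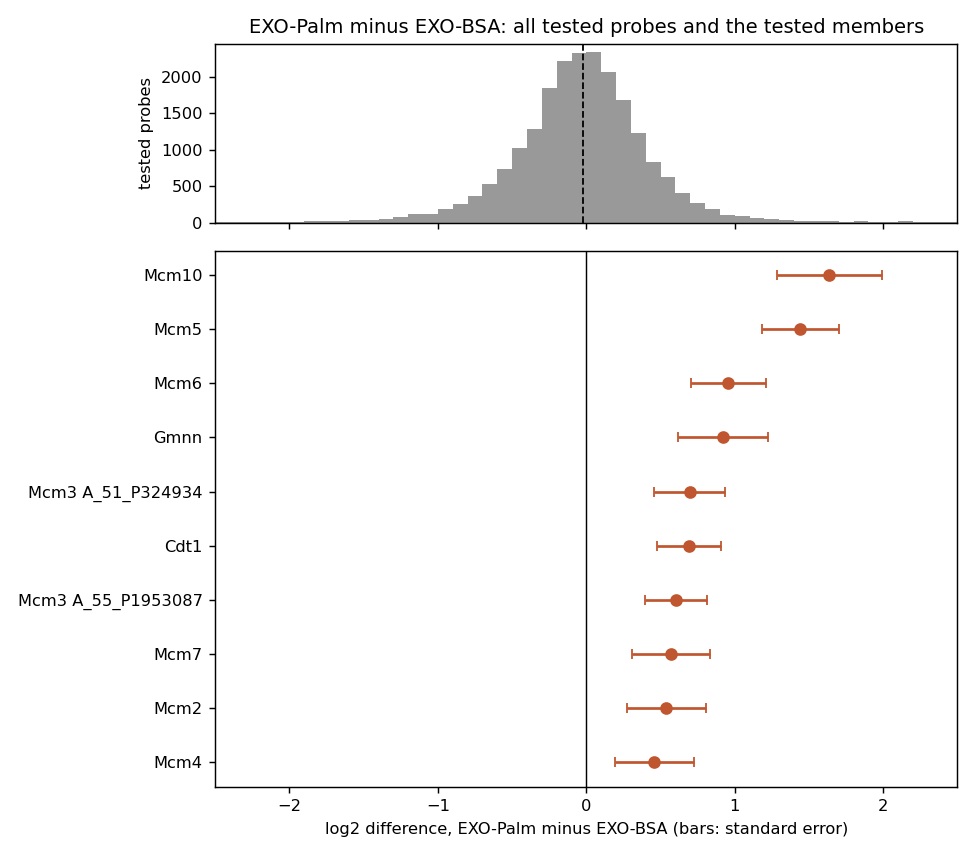
Upper panel, number of tested probes by log2 difference (EXO-Palm minus EXO-BSA) for all 21589 probes, with their median of -0.02 dashed; lower panel, the same difference for the 10 tested probes of licensing genes, with standard errors. The 10 points lie between 0.46 and 1.64, all to the right of 0.

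Only 2 of the 4 slides carried both groups: slide 1 with EXO-BSA replicates 1 and 2 beside EXO-Palm replicate 1, and slide 3 with EXO-BSA replicate 4 beside EXO-Palm replicate 3. Within slide 1 all 10 probes were higher with EXO-Palm, with a median of 0.64, and within slide 3 all 10 were higher, with a median of 1.04. Of all tested probes, 45.4% were higher within slide 1, 53.4% within slide 3 and 28.1% within both. Mcm2 differed by only 0.03 on slide 1 against 1.02 on slide 3. Mcm6 differed by 0.47 and 1.67 on these slides, and Mcm10 by 1.17 and 2.95. The values of Cdt1 were closer (0.84 and 0.89), as were those of Gmnn (1.07 and 1.14).

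Each EXO-Palm array was above the EXO-BSA mean for all 10 probes. The median excess over that mean was 0.73 on EXO-Palm replicate 1, 0.53 on replicate 2 and 0.99 on replicate 3, while the medians of the EXO-BSA arrays were -0.08 to 0.07. EXO-Palm replicate 3 gave the highest of all 7 readings for 7 of the 10 probes, and replicate 2 gave the lowest EXO-Palm reading for 5. The 75th percentile of EXO-Palm replicate 3 was the lowest of the 7 arrays, 549 against 1621 on EXO-Palm replicate 1. Over all tested probes the highest correlation, 0.985, joined EXO-Palm replicate 1 and EXO-BSA replicate 2, which share slide 1. The EXO-Palm arrays correlated at 0.948 to 0.970 with each other. The part of array quality in these values was not tested.

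**Figure D4:**
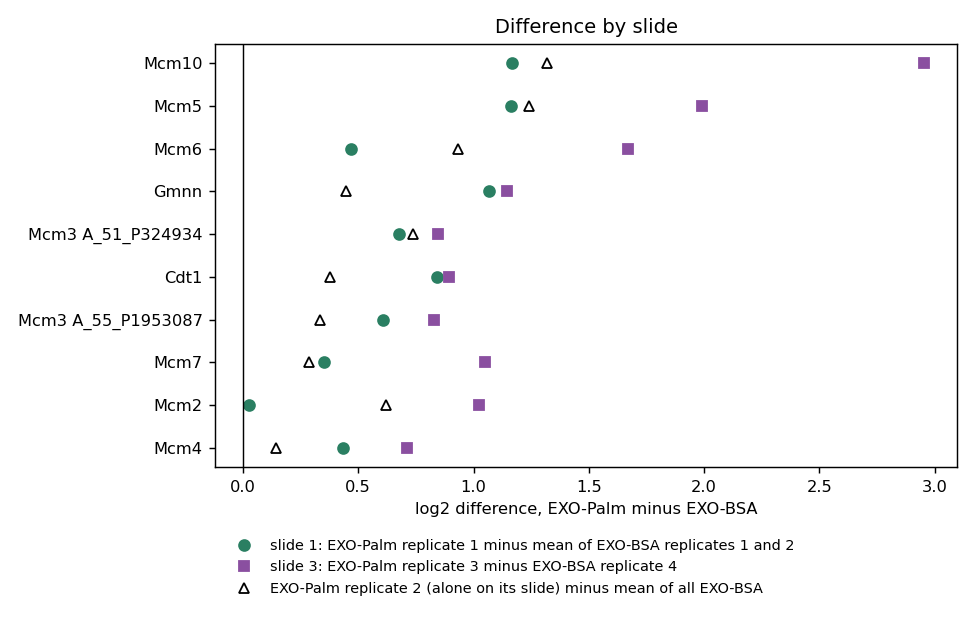
Log2 difference of the 10 tested probes within slide 1 (circles), within slide 3 (squares) and, for EXO-Palm replicate 2, which was alone on its slide, against the mean of all EXO-BSA arrays (triangles). All points lie above 0, and slide 3 gave the higher value of the 2 slides for all 10 probes.

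Beyond these 10 genes, 36 genes that work with them in licensing and firing were read from 4 lists, ordered by role. They have 46 probes, of which 37 were tested. Of those, 20 were higher, 17 were lower and the median was 0.09. In limma 1 passed the threshold as higher and 0 as lower, where 0.463% and 0.0695% of all tested probes did.

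Of the 4 lists, that of helicase activation and origin firing had the highest median, 0.51, and 9 of 12 tested probes were higher and 3 lower. At an unadjusted limma p under 0.05, 6 were higher and 0 lower, where 4.85% of all tested probes were higher and 5.19% lower. The 1 probe past the threshold was 5730590G19Rik, now named Ticrr, whose product treslin brings Cdc45 to loaded origins (A_55_P2005838). It read -4.17, -4.61, -4.94 and -5.57 with EXO-BSA and -2.45, -3.07 and -1.94 with EXO-Palm. All EXO-Palm arrays were above all controls, but only 1 of 4 EXO-BSA arrays was well above background, against 3 of 3 EXO-Palm arrays. The difference was 2.33 with a standard error of 0.380 (limma adjusted p = 0.0436). This probe entered the test only through EXO-Palm, the group in which it was brighter, so its size is measured against readings mostly not well above background and its call is given as a description. The call was lost with normexp background correction (difference 1.09, adjusted p = 0.0739), with slide as a block (0.0566), without a filter (0.201) and on leaving out any array but EXO-Palm replicate 2 (0.0688 to 0.167).

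The GINS complex, which binds Cdc45 and the ring, gave unequal values. Gins1 differed by 1.27 (limma adjusted p = 0.122) and Gins2 by 1.04 (adjusted p = 0.124), both without overlap between groups. Gins4 differed by 0.09, or -0.13 with normexp, and Gins3 by -0.23 (adjusted p = 0.847), the lowest value of the list, or 0.26 with slide as a block and 0.055 without EXO-Palm replicate 2. Recql4, a helicase needed for firing, differed by 1.05 (adjusted p = 0.162), and Dbf4, the activator of the Cdc7 kinase, by 0.86 (adjusted p = 0.466). The probes of Cdc45l and Cdc7 were too dim to be tested.

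In the origin recognition complex, the platform on which the ring is loaded, 3 of 8 tested probes were higher and 5 lower, with a median of -0.12 and 0 past the threshold in limma. At an unadjusted p under 0.05, 0 were higher and 1 lower, beside 4.85% and 5.19% of all tested probes. The extremes were an Orc3l probe at 0.70 (A_55_P1965554, limma adjusted p = 0.618) and an Orc4l probe at -0.67 (A_52_P376535, adjusted p = 0.363). Other probes of the same genes had the opposite sign, -0.38 for Orc3l and 0.17 for Orc4l, so neither gene had a settled direction. The probe of Orc1l was too dim to be tested.

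MCM-related genes were split, with 3 of 6 tested probes higher and 3 lower and a median of 0.02. In limma 0 passed, and 1 was higher at an unadjusted p under 0.05, beside 4.85% of all tested probes. The highest and the lowest of them belong to the same gene, 1110007A13Rik, now named Mcmbp, a binding partner of the ring: its probes gave differences of 0.62 (adjusted p = 0.427), -0.17 and -0.47. The last of these (A_55_P2168504) rested on EXO-Palm replicate 2, which read -4.07 and was not well above background, and it was 0.72 without that array. The second turned to 0.19 with normexp.

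Genes that control licensing through degradation or acetylation gave 5 probes higher and 6 lower, with a median of -0.11 and 0 past the threshold in limma. At an unadjusted p under 0.05, 0 were higher and 1 lower, beside 4.85% and 5.19% of all tested probes. Skp2, part of a ubiquitin ligase that acts on Cdt1, was highest at 0.51 (adjusted p = 0.645), with 0.14 to 0.75 over the alternatives. Gm6320, now named Mcidas, a relative of geminin, was lowest at -1.70 (adjusted p = 0.214), from 2 EXO-Palm arrays, since its spot on EXO-Palm replicate 1 was left out. Its alternatives ranged from -2.22 to -0.51.

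**Figure D5:**
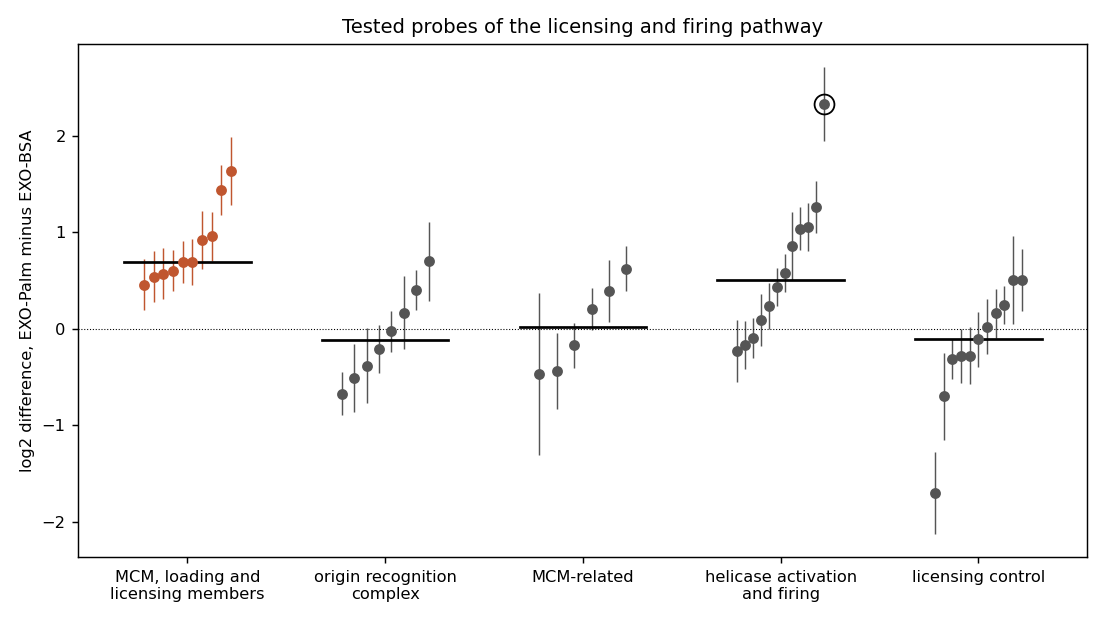
Log2 difference (EXO-Palm minus EXO-BSA) with standard error for each tested probe of the licensing genes (9 genes) and of the 4 lists. Horizontal bars are medians and the ringed point is the probe past a limma adjusted p of 0.05. The medians are 0.69, -0.12, 0.02, 0.51 and -0.11 from left to right.

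Among the tested probes of other genes, those whose pattern over the 7 arrays was most like the mean of Mcm2 to Mcm7 were Ltbp2, Figf, Gm2741, Nfkbiz and 9530077C05Rik. Likeness was the mean absolute difference over the arrays after each pattern had been centred, and it was 0.0904 to 0.101 log2 units for these 5 among 21137 probes compared. Nearest to Mcm10 were Mlf1ip (0.123), which encodes a centromere protein, Alcam (0.171), Speer1-ps1 (0.179), Cyb561 (0.189) and Adm (0.206). For Mlf1ip the difference between the groups was 1.55 (limma adjusted p = 0.157), beside 1.64 for Mcm10. All these probes were picked by likeness over the same 7 arrays, so similar group differences follow from that choice.

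Markers of the cells were read on the same arrays, as the summed signal of each list on the log2 scale. All 6 myotube markers were well above background on every array, with sums of 8.34 to 8.83 for EXO-BSA and 8.40 to 8.64 for EXO-Palm. Of 5 myoblast markers 4 were, and Myf5 was on none, with sums of 3.50 to 3.81 and 3.61 to 4.13. Single myotube markers were divided, 2 higher and 4 lower, from -0.46 for Myh3 to 0.50 for Des. Of the tested myoblast markers 3 were higher and 1 lower, from -0.21 for Pax7 to 0.51 for Vcam1. The sums of these 2 lists overlapped between the groups, as did those of fibroblast markers (7.51 to 7.92 and 6.79 to 7.63). Within the fibroblast list Col1a1 (-1.64) and Col1a2 (-1.05) were lower, and Lum (1.45), Dcn (0.34) and Pdgfra (0.29) were higher. Endothelial sums also overlapped (2.06 to 2.40 and 1.61 to 2.64), and Cdh5, Tek and Emcn were well above background on no array. Adipocyte sums did not overlap (-1.60 to -1.05 and -0.77 to 0.36, with 1 of 5 well above background on all arrays and Cfd on none). Of that list only Cebpa was bright enough to be tested, with a difference of 1.28 (limma adjusted p = 0.188). Macrophage sums did not overlap either (2.84 to 4.13 and 2.29 to 2.52, with 2 of 5 on all arrays). Their members were divided: Itgam, the brightest, was lower (-1.63, limma adjusted p = 0.111), while Csf1r (0.45) and Emr1 (0.58) were higher. The sums of both lists mostly follow these brightest probes. No marker in the 6 lists passed an adjusted p of 0.05 in limma. Their part in the differences of the licensing genes was not tested. In RNA from whole cultures, a higher share of cycling cells and more mRNA in each cell cannot be told apart.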

How the data were processed

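RNA (0.1 µg per sample) was labelled with Cy3 and hybridised to 1-colour Agilent mouse arrays. The authors deposited the scanner output of Agilent Feature Extraction for each array, whose processed intensity is background-subtracted but not scaled across arrays. They also deposited log2 values of their own, with a nearly equal median (6.65) in every column. The submitters' processing notes give version 9.1 of that software, while the file headers give 10.7 and, for EXO-BSA replicate 3, 11.5. The methods name Agi4x44PreProcess and limma without settings. What the study calls EXO-Post Palm and EXO-Post BSA is EXO-Palm and EXO-BSA here, as in the labels.

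The log2 processed intensity was used after subtraction of each array's 75th percentile, taken over 43020 non-control spots. Control spots and 1452 spots marked as uneven or outlying were left out, and copies of a probe were averaged. No spot was saturated. Tested probes were those that the software marked well above background on 75% or more of the arrays in either group (21589 of 39429 probes; 48.3% to 70.3% of probes were so on single arrays). The number of arrays limits the precision. limma 3.58.1 in R 4.3.3 (packages data.table, version 1.17.8, and jsonlite, version 2.0.0) compared the groups on condition, and single probes had an exact permutation test. Figures were drawn with matplotlib 3.10.9 in Python 3.11.15. The fit was run on simulated data with independent noise, as a check of the code. The share of true differences that it finds is not reported here. The labels call the arrays biological replicates without naming separate cultures, so p-values measure the spread between these samples, which may be partly technical.

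Named genes were all members, genes of the 4 lists past the threshold, the highest and lowest probe of each list, and the 5 nearest to each pattern; Gins1, Gins2, Gins4, Recql4, Dbf4 and the second probes of Orc3l, Orc4l and Mcmbp were added after their values were seen. Gene names are those of the array, updated through the RefSeq table. The members, lists and tests were chosen with earlier results of these data known. Alternatives covered background correction, scaling, the authors' values, the filter, slide, replicate number, array weights, the variance model, the test and leaving out each array. normexp was run on the median spot signal, since 1 array lacks the mean, and this and the unadjusted t-test were chosen after seeing the data. Probe annotation on mm9 was not joined to exons or UTRs here.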

Additional observations from a re-analysis of the deposited data

Results flagged for a closer look

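Of 46 groups of 4 EXO-BSA readings from the licensing genes and the 4 lists, 2 held a reading far from the other 3, and chance gives about 1 in 20. Both were EXO-BSA replicate 2. For Cul4a, a ubiquitin ligase scaffold (A_51_P435251), it read 1.496 where the others read 2.34 to 2.47. For Myst2, now named Kat7, an acetyltransferase that acts at origins (A_55_P1957028), it read 3.10 where the others read 2.28 to 2.38. Groups of 3 readings, which include all EXO-Palm groups and the EXO-BSA group of Mcm4, were not examined in this way.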

How the results depend on the processing

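The median difference of the tested licensing probes was 0.69 and lay between 0.63 and 0.81 under every alternative that gives one, with all tested members higher each time (0.67 to 0.79 with 1 array left out). With 115 probes of the array past the threshold in the fit reported, the count was 0 without a filter on dim probes, 181 with slide as a random block, 173 with a trended and robust variance, 0 with the methods' t-test after Benjamini-Hochberg adjustment, 2169 without adjustment of p, 2108 with the unadjusted t-test, and 0 to 202 with 1 array left out (0 without EXO-BSA replicate 1, 202 without EXO-Palm replicate 2). Of the licensing probes 0 passed, and 0 with the adjusted t-test. This became 1, Mcm5 each time, when only probes well above background on all 7 arrays were kept, with slide as a random block, with array weights and with the trended and robust variance, and 7 without adjustment by limma or by the t-test. Mcm5 was 1.08 to 1.62 over its alternatives (adjusted p 0.0244 to 0.309). Of the probes in the 4 lists 1 passed, and 0 did with normexp, without a filter, with the filter on all 7 arrays, with slide as a block or with the adjusted t-test. This was 0 to 1 with 1 array left out, 9 without adjustment and 10 with the unadjusted t-test. No licensing probe changed direction under the alternatives run. Among the other named probes, Gins4 was -0.13 with normexp and -0.15 with the authors' values (-0.19 to 0.26 with 1 array left out), and the Mcmbp probe A_55_P2107035 was 0.19 and 0.20 under these settings. With slide as a block Gins3 was 0.26 and the Mcmbp probe A_55_P2168504 was 0.45. With 1 array left out, Gins3 was -0.54 to 0.055 and A_55_P2168504 was -1.08 to 0.72, both above 0 only without EXO-Palm replicate 2. The Orc4l probe A_52_P456123 was -0.11 under the replicate block and -0.13 to 0.45 with 1 array left out. Recql4 was 0.52 to 1.21 and Mlf1ip 0.74 to 1.83 over their alternatives. None of these passed the threshold. With normexp the difference of 5730590G19Rik was 1.09 in place of 2.33. The causes were not tested. Under a replicate block on replicates 1 to 3 the licensing median was 0.67, and 0 probes of the array, 0 of the licensing genes and 0 of the lists passed. Same-numbered arrays correlated at 0.12, -0.15 and -0.15 in their deviations, and only the first of these pairs shared a slide. Pairs of EXO-BSA and EXO-Palm arrays on the same slide correlated at 0.12, 0.31 and 0.17. Whether the numbers pair the samples therefore cannot be told from these values. With 7 arrays, the smallest exact p was 0.0286. Genes with dim probes only gave no test: Cdc6 and, in the lists, Orc1l, Cdc45l, Cdc7, 6030422M02Rik (now named Mcmdc2) and Gm606 (now named Gmnc).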
